A study of Mus musculus with 12 samples.

Results

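p53, the protein of the mouse gene *Trp53*, and 9 genes that it is known to activate directly were examined in gut epithelial cells of mice that lack 1 copy of the long form of *Chd8*. The members were taken by symbol, with no measured value in the rule, but were chosen with earlier results of these data known. All 10 were found among the 14244 gene rows of the deposited table. CHD8, a chromatin remodeler of the chromodomain helicase family, is a reported repressor of p53. Epithelial cells came from 5 WT and 7 Chd8L+/- male C57BL/6 littermates, all 8 weeks old and untreated, with 1 poly(A) RNA library per mouse. In Chd8L+/- mice the deletion is present in every cell of the body and not only in the epithelium, so the genotype of the epithelial cells and that of the rest of the animal cannot be told apart. Intestinal sections were stripped of their epithelium by incubation and vortexing, with no sorting step.

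p53 is a transcription factor that is kept scarce in unstressed cells, because the ubiquitin ligase MDM2 marks it for destruction. DNA damage and other stresses release it mainly by stabilizing the protein, so that the RNA of *Trp53* itself need not follow its activity, which is usually read from its targets. In the intestine p53 is best known for the death and arrest of crypt cells after irradiation, and p21, the product of *Cdkn1a*, is found in cells that leave the cycle as they move from crypt to villus. In bulk RNA, fewer cells of a type and less RNA per cell cannot be told apart.

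p53 binds a pair of half-sites of 10 bases, and the stretches printed here match that sequence in full or in part. RefSeq promoters (GRCm38.p6, from 250 bases before to 50 after each start) were at hand for 8 of the 10 members, in 11 promoters, since *Bbc3* and *Cdkn1a* have more than 1 start. *Trp53inp1* and *Zmat3* had no entry. They were searched with the p53 half-site consensus, which reads the same on both strands, for pairs up to 13 bases apart. The central C and G of each half-site had to match, with at most 2 mismatches to the consensus in either half-site. A pair with at most 1 mismatch was held by 2 of the 11 member promoters and by 0.627% of the 32851 promoters searched. At most 2 mismatches were met by 3 of the 11 and by 4.08% of all promoters, and 1 exact half-site by 5 of the 11 and by 8.36%. Half-sites are in capitals.
Cdkn1a, chr17:29090928-29090947, plus strand, 1 mismatch: tcagGAACATGTCTTGACATGTTCagcc
Ccng1, chr11:40755462-40755481, minus strand, 1 mismatch: ggccAGACCTGCCCGGGCAAGCCTtggc
Bax, chr7:45467079-45467099, minus strand, 2 mismatches: tcccAGGCAAGCTTtGAACTTGCGGcaat
Mdm2, chr10:117710935-117710944, minus strand, exact half-site: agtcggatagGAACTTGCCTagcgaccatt
Trp53, chr11:69580284-69580293, plus strand, exact half-site: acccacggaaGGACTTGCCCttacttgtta
The pair of *Cdkn1a* lies 51 bases before its upstream start and 2841 bases before its downstream start. The first of these half-sites also forms a pair with an exact half-site 12 bases before it (chr17:29090906-29090937), and this pair had 0 mismatches. It was the best match among the members, in 1 of the 11 member promoters and in 0.073% of all promoters, and is printed only in part for its length. *Bax* likewise has a further, overlapping pair with 2 mismatches. A match is a description of letters and was not tested for binding. Sites outside these promoters were not searched.

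Per length, *Cdkn1a* was by far the most abundant member. It stood at 1681 ± 601 (SD, n = 5) in WT against 1064 ± 236 (SD, n = 7) in Chd8L+/- mice, as normalized counts per kb of exons, where a normalized count is the reads of a gene divided by a size factor of the library. In every one of the 12 libraries it lay above *Bax*, with 408 ± 49.0 in WT and 333 ± 43.3 in Chd8L+/- libraries. *Ccng1* (257 ± 29.0 in WT), *Mdm2* (223 ± 25.7 in WT) and *Trp53* (136 ± 53.9 in WT) followed, and these neighbours overlapped in both genotypes. *Trp53* in turn lay above *Trp53inp1* (66.0 ± 7.70 in WT) in 12 of 12 libraries. *Sesn2* (43.0 ± 3.30 in WT), *Bbc3* (32.3 ± 9.89 in WT) and *Zmat3* (26.0 ± 2.55 in WT) formed a lower group, in which each neighbouring pair overlapped in both genotypes. *Phlda3*, with 6.29 ± 4.28 in WT, was the scarcest and rested on 2 to 20 reads per library. Counting error is large at so few reads, and its share in the spread of *Phlda3* was not estimated. Means of Chd8L+/- libraries put all 10 genes in the same order. Exon lengths came from an annotation that need not be the one the authors used.

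**Figure D1:**
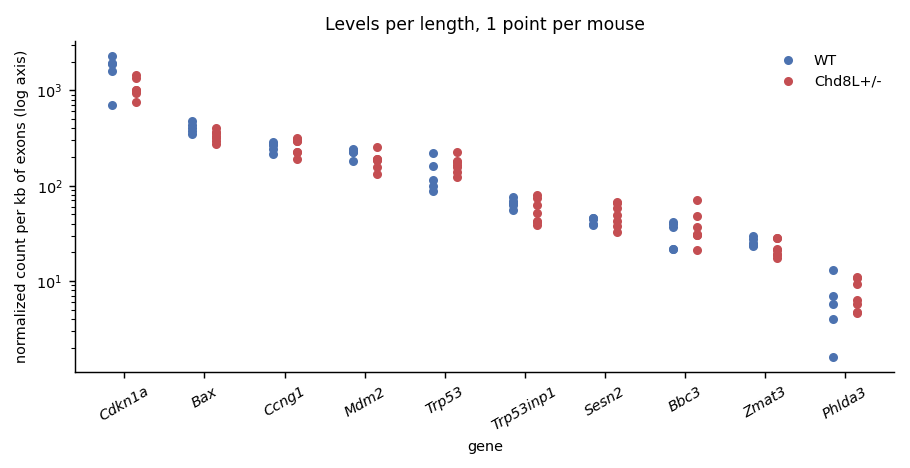
Normalized count per kb of exons on a log axis for the 10 genes, with 1 point per mouse, WT in blue and Chd8L+/- in red. *Cdkn1a* lies above all other genes in all 12 libraries, and *Phlda3* lies below all others.

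Gene-assigned reads came to 15691662 in the smallest library and 20761315 in the largest. *Chd8*, the targeted gene (chr14:52198151-52257780, minus strand, GRCm38), had 1002, 1050, 934, 955 and 823 normalized counts in WT replicates 1 to 5 and between 1084 and 1482 in Chd8L+/- libraries, with a median of 1280.5. The libraries labelled Chd8L+/- all lay above those labelled WT (log2 fold change 0.44, standard error 0.10, adjusted p = 0.121 from limma; p = 0.00126 by the exact permutation test, two-sided, which can give no smaller value). *Chd8* was called by DESeq2 (log2 fold change 0.45, adjusted p = 0.00357) and by limma without WT replicate 2 (log2 fold change 0.48, adjusted p = 0.00676). The table gives 1 value for the whole gene, without the deleted exons apart, so this level does not check the deletion, and an antisense transcript, *Gm26590*, shares 953 exon bases with *Chd8*. On the first principal component WT replicate 2 lay at 41.0, within the Chd8L+/- range of 0.26 to 42.7. The other WT libraries lay between -67.5 and -26.2, so results that rest on WT replicate 2 are given with and without it. It was singled out for its likeness to the Chd8L+/- libraries, so adjusted p-values without it are a description only. Without it limma called 27.6% of all genes, beside 0.0234% with all libraries.

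The test between genotypes was limma, run over 12808 genes with log2(normalized count + 1) as the scale, and a gene was called at a Benjamini-Hochberg adjusted p of 0.05 or less over all of them. Of the 10 members 0 were called in limma, edgeR or DESeq2, where 0.0234% of all genes were called in limma, 0.039% in edgeR and 6.29% in DESeq2. DESeq2 gave no adjusted p for *Phlda3*, which could therefore not be called there. With a block on the letter of the library name in limma, 0 members were called as well, where 3.52% of all genes were called, 1.37% higher and 2.15% lower. At an unadjusted p of 0.05 or less in limma, 2 of the 10 members differed, both lower in Chd8L+/- libraries, beside 24.3% of all genes in either direction and 11.8% lower. The members split evenly, with 5 higher and 5 lower, and their median log2 fold change was -0.11, beside 0.014 over all genes tested. That median lay between -0.25 (9 members, with 10 or more required in every library) and -0.055 (block on the number of the library name) over the alternatives. No member separated the genotypes fully, as 0.515% of all genes did. Without WT replicate 2, limma called 2 of the 10 members, *Trp53* and *Cdkn1a*, at a background of 27.6% of all genes.

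*Trp53* (chr11:69580359-69591873, plus strand) had 651, 886, 355, 402 and 464 normalized counts in WT replicates 1 to 5. In Chd8L+/- libraries it had between 495 and 912, with a median of 674. All 7 Chd8L+/- libraries lay above the WT median, but WT replicate 2 lay above 6 of them, so the groups overlapped. On the log2 scale the difference was 0.36 (standard error 0.22, 95% interval -0.10 to 0.82, adjusted p = 0.313 from limma; two-sided exact permutation test, p = 0.157). Without WT replicate 2 it was 0.55 (standard error 0.18, adjusted p = 0.0401 from limma). The direction was the same in all 22 alternatives, with log2 fold changes between 0.22 and 0.55. A processed pseudogene, *Trp53-ps* on chromosome 17, has no row of its own in the table and could share reads.

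The feedback genes of p53 were *Mdm2*, *Ccng1* and *Zmat3*. *Mdm2* (chr10:117688875-117710758, minus strand), whose product binds p53 and sends it to the proteasome, had 1242, 912, 1148, 1145 and 1218 normalized counts in WT replicates 1 to 5. It had between 681 and 1298 in Chd8L+/- libraries, with a median of 949.6. In 6 of the 7 it was below the WT median, while replicate 7 had the highest value of all 12 libraries. The log2 fold change of *Mdm2* was -0.27 (standard error 0.14, 95% interval -0.58 to 0.034, adjusted p = 0.250 from limma; exact permutation test, p = 0.0884). WT replicate 2 stood apart from the other 4 WT libraries here, and without it the log2 fold change was -0.35 (adjusted p = 0.0857 from limma).

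*Ccng1* (chr11:40748552-40755311, minus strand) encodes cyclin G1, which recruits a phosphatase to MDM2. It had 849, 1007, 932, 753 and 971 normalized counts in WT replicates 1 to 5 and between 669.5 and 1107 in Chd8L+/- libraries, with a median of 1024. The Chd8L+/- libraries spread to both sides of WT, 4 above every WT library and 1 below every WT library. The difference on the log2 scale was 0.031 (95% interval -0.27 to 0.34, adjusted p = 0.911 from limma).

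*Zmat3* (chr3:32334792-32366014, minus strand), an RNA-binding zinc finger protein, had 315, 268, 290.4, 338 and 275 normalized counts in WT replicates 1 to 5. It had between 199 and 325 in Chd8L+/- libraries, with a median of 244, and 5 of the 7 lay below every WT library. This was a log2 fold change of -0.25 (standard error 0.15, 95% interval -0.56 to 0.063, adjusted p = 0.299 from limma).

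**Figure D2:**
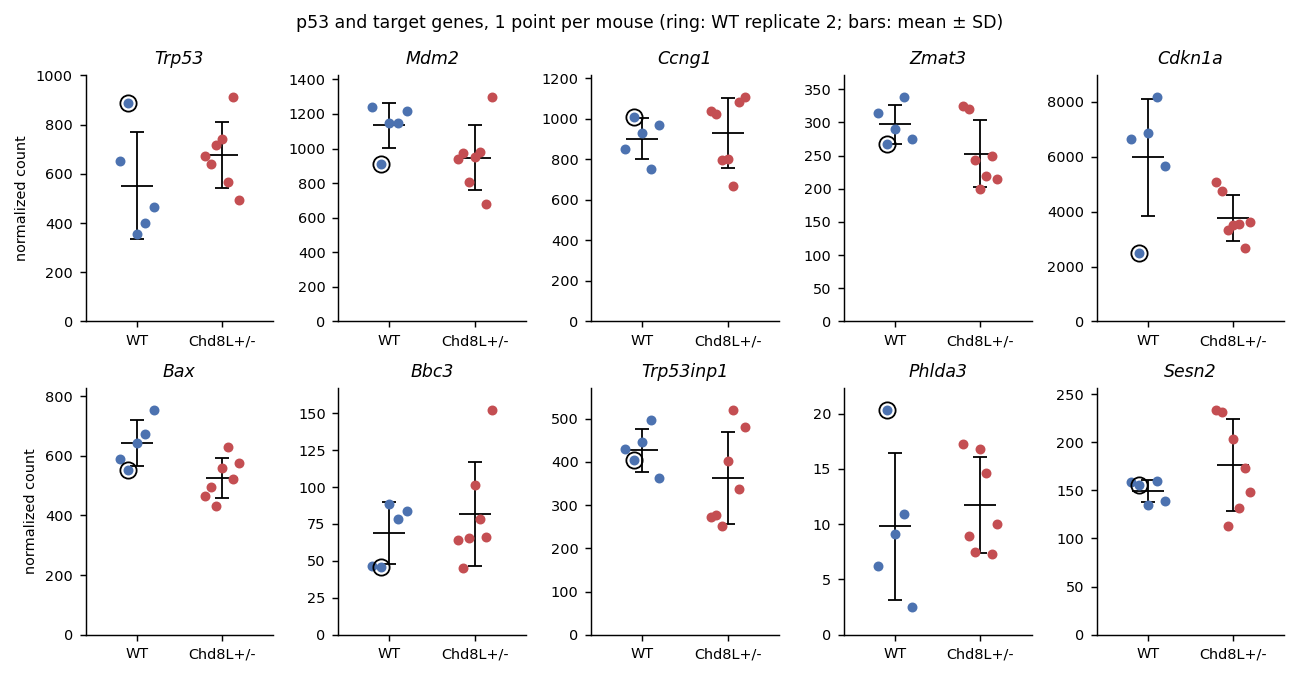
Normalized counts of the 10 genes by genotype, with 1 point per mouse, the mean as a dash and the SD as a bar (WT n = 5, Chd8L+/- n = 7). The ring marks WT replicate 2, which is the lowest of all 12 libraries for *Cdkn1a* (2499) and the highest WT library for *Trp53* (886).

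*Cdkn1a* (chr17:29090976-29100727, plus strand), whose product p21 inhibits cyclin-dependent kinases and halts the cycle, showed the largest difference among the lower members. It had 6651, 2499, 6869, 8172 and 5671 normalized counts in WT replicates 1 to 5. In Chd8L+/- libraries it lay between 2683 and 5079, with a median of 3537. Of the WT libraries 4 lay above all 7 Chd8L+/- libraries, and the fifth, replicate 2, lay below all of them. Its log2 fold change was -0.58 (standard error 0.26, 95% interval -1.14 to -0.033, adjusted p = 0.187 from limma; two-sided exact permutation test, p = 0.0694). On the normalized counts themselves, where the high WT values weigh more, the exact permutation p was 0.0379. Without WT replicate 2 the log2 fold change of *Cdkn1a* was -0.87 (standard error 0.17, adjusted p = 0.00499 from limma). In that fit 27.6% of all genes were called. The direction held in all 22 alternatives, with log2 fold changes between -0.87 and -0.35, and DESeq2 gave an adjusted p of 0.0850. An unnamed transcript, AC167363.2, shares 273 exon bases with *Cdkn1a* on the opposite strand, and how strand was used in the counting is not given in the sources used here.

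The genes of cell death were *Bax*, *Bbc3* and *Trp53inp1*. *Bax* (chr7:45461697-45466898, minus strand), which opens the outer membrane of mitochondria, had 590.2, 553, 641, 674 and 752 normalized counts in WT replicates 1 to 5. It lay between 432 and 629.7 in Chd8L+/- libraries, with a median of 523, all 7 below the WT median and 4 below every WT library. For *Bax* the log2 fold change was -0.29 (standard error 0.12, 95% interval -0.55 to -0.035, adjusted p = 0.165 from limma; two-sided exact permutation test, p = 0.0227). It was between -0.34 and -0.23 over the alternatives, with adjusted p-values from 0.0506 to 0.361. *Gm45808*, a protein-coding model on the same strand, shares 192 exon bases with *Bax*.

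*Bbc3* (chr7:16308393-16318205, plus strand) encodes PUMA, which frees BAX from the proteins that hold it in check. It had 46.2, 45.7, 88.7, 78.4 and 84.0 normalized counts in WT replicates 1 to 5 and between 45.3 and 152 in Chd8L+/- libraries, with a median of 66.5. The highest value, in Chd8L+/- replicate 7, belonged to the library that was also highest for *Mdm2* and *Ccng1*. The log2 fold change was 0.21 (standard error 0.29, 95% interval -0.41 to 0.83, adjusted p = 0.671 from limma). *Bbc3* and *Bax* thus lay in opposite directions, neither past the threshold, and whether their changes differ was not tested.

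*Trp53inp1* (chr4:11156431-11174379, plus strand), a stress protein that takes part in p53 activation and autophagy, had 429, 404, 446, 497 and 362 normalized counts in WT replicates 1 to 5. In Chd8L+/- libraries it lay between 252 and 519.7, with a median of 338, 4 of 7 below every WT library and 1 above. The log2 fold change was -0.28 (standard error 0.19, 95% interval -0.68 to 0.12, adjusted p = 0.365 from limma).

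*Sesn2* and *Phlda3* act on growth signalling. *Sesn2* (chr4:132492032-132510501, minus strand), a sestrin that restrains the growth kinase mTORC1, was tight in WT, with 158, 155, 135, 159.7 and 139 normalized counts in replicates 1 to 5. Chd8L+/- libraries ran from 113 to 233, with a median of 173, and 4 of the 7 lay above every WT library and 2 below every WT library. Its log2 fold change was 0.19 (standard error 0.19, 95% interval -0.21 to 0.60, adjusted p = 0.544 from limma). *Phlda3* (chr1:135766119-135769136, plus strand), a pleckstrin homology domain protein that opposes AKT, had 6.22, 20.3, 9.07, 10.9 and 2.51 normalized counts in WT replicates 1 to 5 and between 7.28 and 17.3 in Chd8L+/- libraries, with a median of 9.98. The log2 fold change of 0.40 had a 95% interval of -0.54 to 1.35 (adjusted p = 0.590 from limma), the widest among the members.

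The members did not vary as 1 block among mice. Across the 12 libraries, 20 of the 45 pairs of members had a positive and 25 a negative Pearson r between their deviations from the genotype mean of log2(normalized count + 1). Of the pairs 7 had a permutation p of 0.05 or less and 0 an adjusted p of 0.05 or less over the 45 pairs. *Bbc3* and *Bax* had r = 0.65 (permutation p = 0.0302, adjusted p = 0.226) and rho = 0.71 (permutation p = 0.0176, adjusted p = 0.301). *Trp53* and *Bbc3* had r = -0.66 (permutation p = 0.0212, adjusted p = 0.226) and rho = -0.64 (permutation p = 0.0437, adjusted p = 0.328). *Cdkn1a* and *Mdm2* had r = 0.55 (permutation p = 0.0425, adjusted p = 0.273) and rho = 0.33 (permutation p = 0.308, adjusted p = 0.693). *Bax* and *Trp53inp1* went together with r = 0.70 (permutation p = 0.0188, adjusted p = 0.226; Spearman's rho = 0.73, permutation p = 0.0166, adjusted p = 0.301). Without the 2 libraries farthest from the median of *Bax*, r was 0.45. This pair went together only among the 7 Chd8L+/- libraries (r = 0.97), while r was -0.19 among the 5 WT libraries. *Cdkn1a* and *Zmat3* had r = 0.56 (permutation p = 0.0154, adjusted p = 0.226; rho = 0.66, permutation p = 0.0200, adjusted p = 0.301), and 0.63 without the 2 farthest libraries. *Trp53* went against *Cdkn1a*, with r = -0.71 (permutation p = 0.0292, adjusted p = 0.226; rho = -0.59, permutation p = 0.0563, adjusted p = 0.328), or -0.41 without the 2 farthest libraries, which were WT replicates 2 and 3. *Trp53* also went against *Mdm2*, with r = -0.68 (permutation p = 0.00508, adjusted p = 0.226; rho = -0.48, permutation p = 0.137, adjusted p = 0.456), or -0.69 without those libraries.

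**Figure D3:**
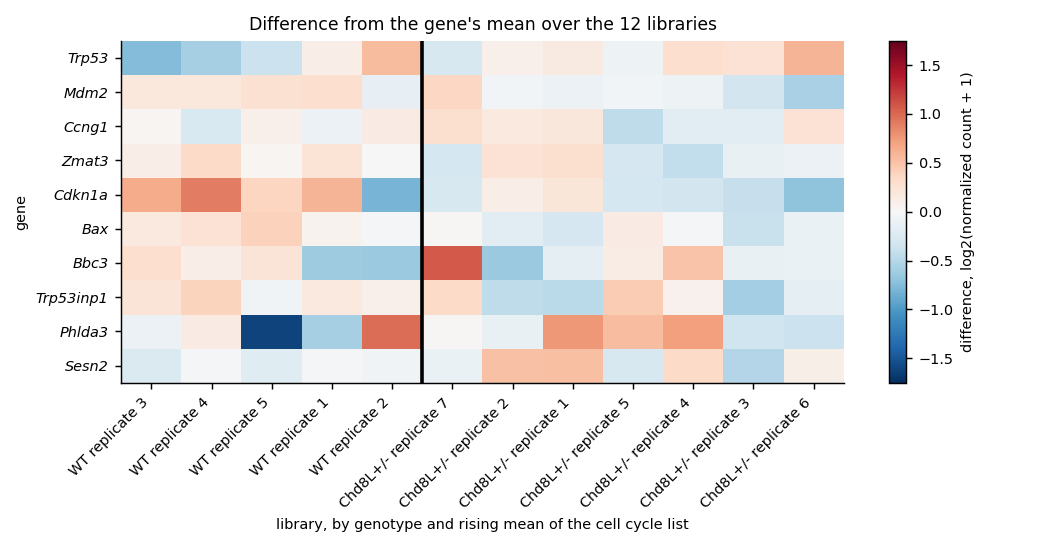
Difference of each gene from its own mean over the 12 libraries, on the log2(normalized count + 1) scale, with blue for lower and red for higher. Libraries are ordered by genotype (black line between them) and within it by the mean of the 28 cell cycle genes. In each genotype the last library, WT replicate 2 or Chd8L+/- replicate 6, has the lowest *Cdkn1a* and the highest *Trp53*.

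p21 acts through the DREAM complex, a repressor of genes for DNA replication and division, and 28 such genes were listed, none of them a member. All 28 were higher in Chd8L+/- libraries, with log2 fold changes between 0.66 and 1.46 and a median of 1.07, and 27 had an unadjusted p of 0.05 or less in limma, where 12.5% of all genes had one in that direction. With p adjusted over all genes tested, 0 of the 28 were called in limma with all libraries. Without WT replicate 2 limma called 28, where 14% of all genes were called higher. With the letter block limma called 7, where 1.37% of all genes were called higher. DESeq2, which called 1.8% of all genes higher, called 0 of the 28, and so did edgeR. An unadjusted p of 0.05 or less was reached by 21 of the 28 in DESeq2 and 16 in edgeR, beside 1468 and 1284 of all 12808 genes in that direction. Averaged over the list, log2(normalized count + 1) lay between 6.79 and 9.17 in WT, the highest being WT replicate 2, and between 8.33 and 9.29 in Chd8L+/- libraries.

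*Trp53* RNA followed this cell cycle mean closely. Over the 12 libraries the deviations from the genotype means gave r = 0.94 (permutation p = 8.00e-05, adjusted p = 0.000800 over the 10 members; rho = 0.93, permutation p = 0.00036, adjusted p = 0.0036). Without the 2 libraries farthest from the median of *Trp53*, r was 0.87, and within the 7 Chd8L+/- libraries it was 0.86 (exact permutation p = 0.0117, adjusted p = 0.0585; rho = 0.86, exact permutation p = 0.0238). *Cdkn1a* went the other way, with r = -0.83 (permutation p = 0.0048, adjusted p = 0.024; rho = -0.76, permutation p = 0.00347, adjusted p = 0.0174). This relation rests in part on WT replicates 2 and 4, since r was -0.55 without them and -0.70 within the 7 Chd8L+/- libraries (exact permutation p = 0.0843, adjusted p = 0.281). *Mdm2* had r = -0.58 (permutation p = 0.0102, adjusted p = 0.0338; rho = -0.36, permutation p = 0.274, adjusted p = 0.456), -0.61 without its 2 farthest libraries and -0.88 within the 7 Chd8L+/- libraries (exact permutation p = 0.00278, adjusted p = 0.0278). The other 7 members had r between -0.52 and 0.18, with adjusted permutation p-values of 0.181 or more. The list and the relation were chosen with results of these libraries known, so the p-values are given as a description. How many of all genes reach as large an r with this mean was not counted. The relation is thus not shown to be particular to these members.

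**Figure D4:**
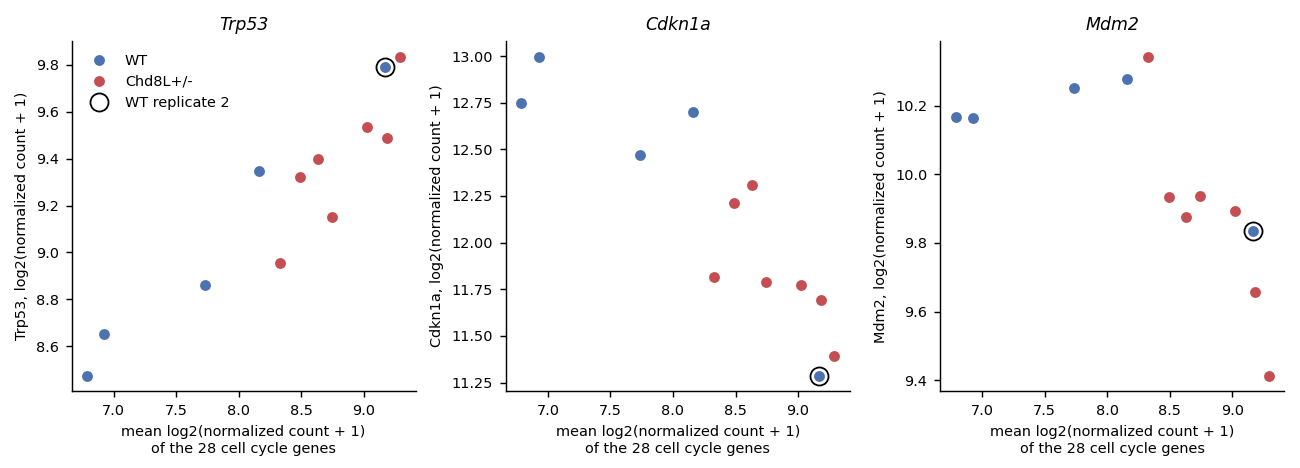
Level of *Trp53*, *Cdkn1a* and *Mdm2* in each library, on the log2(normalized count + 1) scale, against the mean of the 28 cell cycle genes on the same scale (WT blue, Chd8L+/- red). In both genotypes *Trp53* is higher and *Cdkn1a* lower where the cell cycle mean is higher. WT replicate 2 (ring) lies among the Chd8L+/- libraries for *Trp53* and *Mdm2*, and below all of them for *Cdkn1a*.

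Among all 12808 genes, those with the pattern most like *Trp53* over the 12 libraries, by Pearson r of deviations from the genotype mean, were *Hspd1* (r = 0.988), *Fkbp4* (r = 0.985) and *Hsp90ab1* (r = 0.985), which encode chaperones or a co-chaperone. Most like *Cdkn1a* were *Ankrd50* (r = 0.977), *Rhof* (r = 0.976) and *Klc4* (r = 0.973), and most like *Mdm2* were *Rasa2* (r = 0.926), *Irf9* (r = 0.923) and *Tuft1* (r = 0.918). These r values are the highest out of all genes over the same 12 libraries and are given as a description. The part of depth and of cell mixture in them was not tested.

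Beyond the members, 70 regulators and targets of p53 were listed, of which 62 were in the table and 56 were tested. In limma 0 of the 56 were called, and 18 had an unadjusted p of 0.05 or less, 11 higher and 7 lower, beside 12.5% and 11.8% of all genes. Their median log2 fold change was 0.065. Without WT replicate 2, 19 were called, 11 higher and 8 lower, where 14% of all genes were called higher and 13.6% lower. DESeq2 called 6 of the 56, 2 higher and 4 lower, where it called 1.8% of all genes higher and 4.49% lower.

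Of the 9 tested genes for cell cycle arrest, whose median log2 fold change was -0.58, 7 were lower in Chd8L+/- libraries. An unadjusted p of 0.05 or less in limma was reached by 5 of these, *Cdkn1a* being 1 of them, beside 11.8% of all genes. *Gadd45a*, a stress sensor that inhibits the mitotic kinase, stood at 1351 ± 309 (SD, n = 5) in WT against 781 ± 144 (SD, n = 7) in Chd8L+/- mice, in normalized counts (log2 fold change -0.78, standard error 0.18, adjusted p = 0.121 from limma; adjusted p = 0.00295 without WT replicate 2). *Btg2*, an antiproliferative factor, had 2407 ± 619 in WT and 1602 ± 334 in Chd8L+/- libraries (log2 fold change -0.57, adjusted p = 0.128 from limma; adjusted p = 0.00899 without WT replicate 2). *Plk3* and *Cgref1*, named after their values were seen, had log2 fold changes of -0.87 and -0.77. Of the 2 higher genes, *Gtse1*, also named after its value was seen, had a log2 fold change of 1.12.

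The tested genes of apoptosis, members included, numbered 16, with 9 lower and 7 higher and a median log2 fold change of -0.15. *Pmaip1*, which encodes NOXA, a partner of PUMA in releasing BAX, stood at 1297 ± 279 (SD, n = 5) in WT against 798 ± 233 (SD, n = 7) in Chd8L+/- mice, in normalized counts (log2 fold change -0.74, adjusted p = 0.121 from limma; adjusted p = 0.0171 without WT replicate 2). *Pidd1*, a death domain protein that activates caspase-2, had 82.0 ± 46.1 in WT and 156 ± 36.9 in Chd8L+/- libraries (log2 fold change 1.02, adjusted p = 0.121 from limma; adjusted p = 0.00312 without WT replicate 2). Its WT libraries ran from 46.4 to 161, and the highest was WT replicate 2.

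Members included, the median log2 fold change was 0.040 among the 11 tested targets for metabolism and oxidative stress, 0.14 among the 7 for DNA repair and -0.087 among the 6 for feedback. *Ddit4*, which like *Sesn2* restrains mTORC1, stood at 693 ± 88.2 (SD, n = 5) in WT against 399.7 ± 101 (SD, n = 7) in Chd8L+/- mice, in normalized counts, and its WT range of 636 to 847 did not overlap the Chd8L+/- range of 233 to 525. Its log2 fold change was -0.83 (standard error 0.18, adjusted p = 0.121 from limma; adjusted p = 0.00923 without WT replicate 2), although WT replicate 2, with 656.5, lay with the other WT libraries. *Ddit4* also answers to glucocorticoids and low oxygen.

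Of the 20 tested regulators of p53, *Trp53*, *Mdm2* and *Chd8* included, 14 were higher and 6 lower, with a median log2 fold change of 0.19. In limma 7 had an unadjusted p of 0.05 or less, *Chd8* among them, all higher, beside 12.5% of all genes. *Atm* and *Atr* encode the kinases that pass a DNA damage signal on to p53. *Atm* stood at 139.7 ± 88.6 (SD, n = 5) in WT against 269 ± 37.2 (SD, n = 7) in Chd8L+/- mice, in normalized counts (log2 fold change 1.14, adjusted p = 0.121 from limma; adjusted p = 0.00273 without WT replicate 2). *Atr* had a mean of 128 (range 51.4 to 283) in WT and of 241 (range 179.7 to 280.1) in Chd8L+/- libraries (log2 fold change 1.16, adjusted p = 0.121 from limma; adjusted p = 0.00276 without WT replicate 2). For both genes the highest of all WT libraries was replicate 2, with 284 for *Atm* and 283 for *Atr*, above the Chd8L+/- means. *Mki67*, the proliferation marker of the DREAM list, had 1226 ± 1107 in WT and 2626 ± 610.0 in Chd8L+/- libraries (log2 fold change 1.45, adjusted p = 0.121 from limma; adjusted p = 0.00255 without WT replicate 2).

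Of the marker genes listed for the epithelium and for other cell types, 0 were called in limma, and the sums of each list overlapped between the genotypes. Of 9 myeloid markers 4, and of 8 tested stromal and endothelial markers 4, had an unadjusted p of 0.05 or less in limma. All were higher in Chd8L+/- libraries, where 12.5% of all genes had such a p in that direction. Such a p was also reached by 2 of 10 epithelial and 1 of 9 T cell markers, which were lower, beside 11.8% of all genes. Of 7 B and plasma cell markers 0 reached it. Of 9 myeloid markers 9 had a higher mean in Chd8L+/- libraries, with a summed level of 337 to 762 normalized counts in WT and 466 to 1345 in Chd8L+/- libraries. Of 10 stromal and endothelial markers, 9 had a higher mean in Chd8L+/- libraries, with sums of 73.8 to 464 in WT and 113 to 2083 in Chd8L+/- libraries. In both lists WT replicate 2 had the highest WT sum. Of 9 T cell markers 2 had a higher mean (sums of 2253 to 4210 in WT and 1702 to 3430 in Chd8L+/- libraries), and of 7 B and plasma cell markers 1 (484 to 2126 in WT and 254 to 4382 in Chd8L+/- libraries). Epithelial markers, all 10 of them present and 3 with a higher mean in Chd8L+/- libraries, summed to 175480 to 309151 in WT and 169088 to 298005 in Chd8L+/- libraries, the lowest WT sum being again replicate 2. No marker was at 0 in all libraries. The part of these cell mixtures in the values of *Trp53*, *Cdkn1a* and the other members was not tested.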

How the data were processed

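Gut epithelial RNA of 5 WT and 7 Chd8L+/- mice was sequenced by the authors, who mapped reads to mm10 with Tophat2 and processed them with DESeq2. What was deposited is a signal: the reads of a gene over the size factor of its library. Counting program, annotation and use of strand are not given in the sources used here. Values were whole multiples of what 1 read is worth (100% of values within 0.001 of a whole number), so reads were recovered. All 12 columns matched a mouse by library name.

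Genotypes were compared with limma 3.58.1 (R 4.3.3, eBayes, trend) after a log2 transform with a pseudocount of 1. Genes needed a mean of 10 or more. There were no covariates, and p was adjusted by Benjamini-Hochberg over the 12808 genes tested. Single genes were also compared by a two-sided exact permutation test over 792 splits, whose smallest p is 0.00126. Correlations used 100000 permutations within genotype. The steps were tested on simulated data.

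Alternatives were pseudocounts of 0.5 and 5, the removal of the filter, a stricter filter (10 or more in all libraries), quantile-normalized values, the recovered reads in edgeR 4.0.16 or in DESeq2 1.42.0, blocks on the replicate number and on the number or letter of the library name, and each library left out. Named were all members, *Chd8*, the 4 listed genes per direction with the smallest p, any listed gene past the threshold and the 3 genes most like *Trp53*, *Cdkn1a* and *Mdm2*. *Plk3*, *Cgref1* and *Gtse1* fall outside this rule and were named after their values were seen. Members and lists were chosen with earlier results of these data known. Positions and exon lengths are from GENCODE M21 (GRCm38, the build that mm10 names).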

Additional observations from a re-analysis of the deposited data

Results flagged for a closer look

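*Mdm2* in WT replicate 2 was the single value that lay far from the rest of its group, at 912 normalized counts (9.83 on the log2(value + 1) scale) with the nearest WT library at 1145. Over the 10 members and *Chd8*, 22 groups were looked at in this way, in which chance gives about 1.1. The same library had the lowest *Cdkn1a* and the highest *Trp53* of the WT libraries.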

How the results depend on the processing

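The count of genes called, 3 with all libraries in limma, was 5 with edgeR, 805 with DESeq2, 451 with a block on the letter of the library name, 0 with a block on its number, and 0 with the replicate block. Deviations of same-numbered libraries of the genotypes had correlations between -0.344 and 0.189. The labels name no pairing, and these correlations, which were not tested, cannot exclude one. Leaving out 1 library gave counts between 0 and 3534, the highest without WT replicate 2. The count of members called was 0 and lay between 0 and 2 with 1 library left out, the 2 being *Trp53* and *Cdkn1a* without WT replicate 2. Of 83 other listed genes, the 28 cell cycle genes included, 0 were called in limma with all libraries. DESeq2 called 6, where it called 6.29% of all genes. With the letter block 11 were called, beside 3.52% of all genes. With 1 library left out the count lay between 0 and 46, the 46 without WT replicate 2. In that fit 27.6% of all genes were called, and all 28 cell cycle genes. *Ccng1* was the member whose direction turned, with a log2 fold change of -0.071 under the replicate block, -0.13 under the letter block, and between -0.032 and 0.11 with 1 library left out, below 0 without WT replicate 4, Chd8L+/- replicate 6 or Chd8L+/- replicate 7. The cause was not tested. Of 241 fold changes of members and *Chd8* under the alternatives, 232 kept direction and side of the threshold. *Phlda3* in DESeq2, without an adjusted p, was counted there as not called. Depth limits *Phlda3*, which had no value with at least 10 required in every library.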
